A study of Brassica rapa subsp. pekinensis with 6 samples.

Results

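In the developing flower buds of Chinese cabbage, 232 of 35421 genes with a read stood at least 4-fold higher in the male sterile mutant msm than in its wild type 'FT'. They were chosen by their deposited levels in RPKM (reads scaled to the coding length of the gene and to the total reads of the library): at least 5 RPKM in each of the 3 msm libraries, and a mean in msm at least 4 times the mean of the 3 wild-type libraries. Where a library's table lacked a gene, its level was taken as 0. These values chose the genes, so their levels and ratios are given as a description without a test. Of the 18994 genes at 5 RPKM or more in each msm library, the raised genes made up 1.22%.

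The msm group (libraries 1, 2 and 3) and the wild-type group (libraries 1, 2 and 4) were both sampled from buds at full bloom, and the labels name no treatment and no plant age. They do not say which gene or allele differs in msm, how the mutant was obtained. Nor do they tell whether each library stands for its own plant, so every spread below is one between libraries and may be technical. Uniquely assigned reads totalled 25534727 ± 600111 per library in msm and 25156752 ± 216956 in wild type (SD, n = 3 each).

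A flower bud holds sepals, petals, stamens with their anthers, and the carpels. Inside the anther the tapetum, a nourishing cell layer, feeds the developing pollen and supplies its wall. A male sterile plant makes no functional pollen, while its female organs can stay fertile, which is why such lines are used in breeding hybrid cabbages. In whole buds, more cells of a type and more RNA per cell cannot be told apart.

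The files list genes by identifier without a name. A RefSeq gene table (assembly CAAS_Brap_v3.01) named 1 of the 35421 identifiers, SWEET9 (Bra000116), a sugar transporter of nectaries, and none of the 232 raised genes. SWEET9 is outside the set because its msm levels were 2.61, 2.96 and 2.80 RPKM, against no read in the wild-type libraries. The gene lists covered pollen, tapetum and exine, nectary, floral organ identity, jasmonate, flavonoids, flowering time, glucosinolates, senescence and defence, and sugar transport. Their genes could therefore not be matched to identifiers, except SWEET9 in the nectary and sugar transport lists. They may be measured under identifiers without a name. The bud label could not be checked against organ markers for the same reason. What the raised genes encode is not identified here, and they are given by identifier.

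The raised genes spanned a wide range of levels. Their mean in msm ran from 5.35 to 662.0 RPKM with a median of 16.3 RPKM, and 170 reached 10 RPKM, 45 reached 50 RPKM and 20 reached 100 RPKM. Their median in wild type was 1.86 RPKM. The other 18762 genes at 5 RPKM or more in each msm library had a median of 21.5 RPKM in msm and 18.9 RPKM in wild type. At the median the raised genes were thus somewhat weaker than these others in msm, and far weaker in wild type, which the rule favours. Ranked by mean RPKM among all genes, the median raised gene stood at 11701 in msm and at 24305 in wild type. Most raised genes were therefore not among the abundant genes of the mutant bud.

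**Figure D1:**
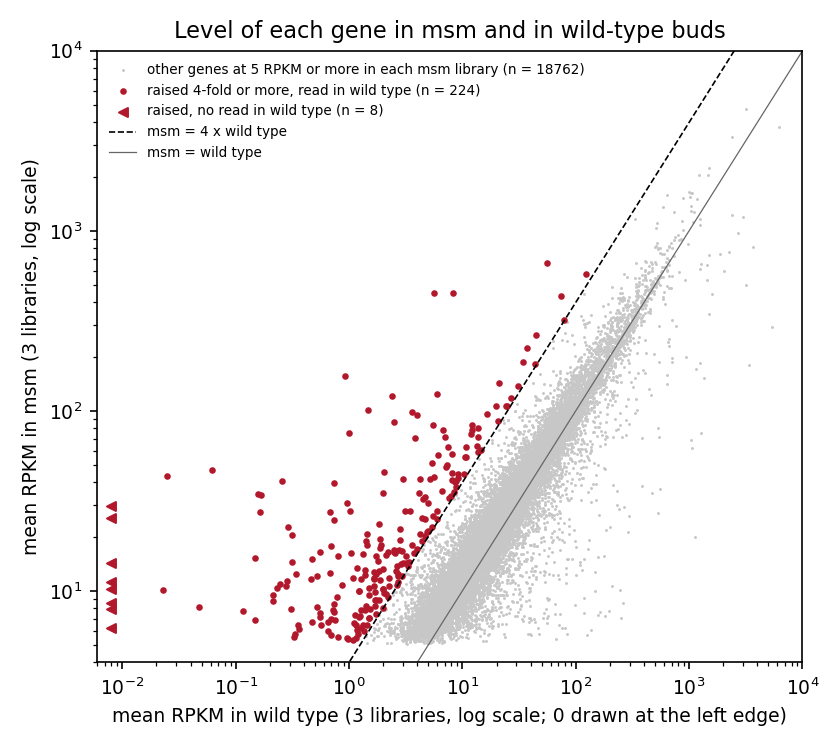
Mean RPKM of each gene in msm (vertical, log scale) against wild type (horizontal, log scale) for genes at 5 RPKM or more in each msm library. The 224 raised genes with a wild-type read lie on or above the dashed 4-fold line, and the 8 without one are drawn as triangles at the left edge.

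Small ratios prevailed. With genes unread in wild type placed at the lowest fold that 3 counts per library allow, 60 genes had a ratio of 4 to 5, 67 of 5 to 8, 47 of 8 to 16, 39 of 16 to 64 and 19 of 64 or more. The median ratio of msm to wild type was 6.996, against 1.19 over all genes at 5 RPKM or more in each msm library. With TMM factors, which take most genes to be unchanged, every msm to wild-type ratio is 1.16 times smaller. On that scale 183 genes met the rule, and all were among the 232. Of the 232, 40 fell below 4-fold and 10 below 5 RPKM in an msm library, and the lowest ratio was 3.45.

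Each of the 232 genes was above the filter on low counts, and edgeR's quasi-likelihood test called all of them higher in msm at an adjusted p below 0.05 and at least 2-fold, against 4.64% of the 29104 genes tested. The rule used the same contrast, so this count adds nothing to the choice. The lowest msm value was above the highest wild-type value in every raised gene, and in 176 genes it was at least 4 times that value. The smallest such gap was 2.09-fold, in Bra030838. The rule favours gaps of this kind, and they were not counted in the other genes. Genes selected without 1 library of each group can be read in the libraries left out. Over the 9 ways to do this, 236 to 246 genes were selected, and in the left-out pair 85.7% to 91.9% of them were again at least 4-fold higher. Their median ratio there was 6.75 to 7.66. A ratio of at least 2 held for 98.4% or more, and at most 2 genes were not higher in the left-out msm library. Of the selected genes, 225 to 229 were among the 232. The left-out libraries did not choose the genes but may come from the same plants, so these counts are a description only. The lowest share, 85.7%, came where msm library 2 was left out together with wild-type library 2 or 4.

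Genes lay close together on both sides of the thresholds. Bra008835, with 8.04 RPKM in msm and 2.004 RPKM in wild type, was just inside at a ratio of 4.01. Bra016974, with 7.36 RPKM in msm and 1.84 RPKM in wild type, was just outside at 3.999. Between ratios of 4 and 4.4 lay 29 raised genes, and between 3.6 and 4 lay 38 genes that are not in the set. At the level threshold, Bra038035 was inside with a lowest msm value of 5.01 RPKM, and Bra003850 was outside with 4.89 RPKM although it had no wild-type read. In all, 13 genes had a mean of at least 5 RPKM in msm and a 4-fold ratio but were below 5 RPKM in at least 1 msm library.

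The highest level among the raised genes was that of Bra019734 (coding length 963 bases). It had 724.4, 588.2 and 673.3 RPKM in the msm libraries, against 55.1, 55.3 and 56.3 RPKM in the wild-type libraries, a ratio of 11.9. The wild-type libraries were nearly equal, library 2 was the lowest in msm, and the groups lay far apart. Over the 9 library pairs the ratio ran from 10.5 to 13.2. Among all genes it ranked 62 in msm and 3531 in wild type.

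Bra031798 (966 bases) and Bra029933 (1050 bases) combined a high level with a large ratio. Bra031798 had 468.5, 418.6 and 466.03 RPKM in msm, against 5.66, 5.33 and 6.01 RPKM in wild type, a ratio of 79.6. Bra029933 had 490.01, 404.6 and 456.6 RPKM in msm, against 7.80, 8.43 and 8.69 RPKM in wild type, a ratio of 54.2. Both ranked among the most abundant genes in msm (ranks 164 and 167) but not in wild type (ranks 18896 and 16291). The groups were far apart in both, and the lowest library-pair ratio was 69.7 for Bra031798 and 46.6 for Bra029933.

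The other 3 of the 6 highest genes were already well expressed in wild type and had small ratios. Bra001432 (1038 bases) had 599.5, 551.7 and 572.4 RPKM in msm, against 126.97, 115.7 and 129.5 RPKM in wild type, a ratio of 4.63. It had the highest wild-type level of the set, followed by Bra003526 and Bra008025. Bra008025 (633 bases) had 462.3, 409.0 and 439.2 RPKM in msm, against 77.1, 71.8 and 73.7 RPKM in wild type, a ratio of 5.89. Bra003526 (2715 bases) had 282.8, 352.6 and 324.6 RPKM in msm, against 85.8, 77.6 and 72.9 RPKM in wild type. The groups did not overlap in these genes, but the ratio of 4.06 of Bra003526 rests on single libraries. It was 3.86 without msm library 2 and 3.92 without wild-type library 4, so the gene leaves the set in both cases. It also differed from the other 5 in its order, with msm library 2 highest and not lowest.

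Among the 182 raised genes with at least 10 reads in each wild-type library, Bra040941 (669 bases) had the largest ratio. It had 163.9, 140.2 and 162.5 RPKM in msm, against 0.647, 0.894 and 1.20 RPKM in wild type, where it held 11, 15 and 20 reads. The ratio of the means was 170.4, and over library pairs it ran from 117 to 253, a range that follows mostly the wild-type counts. Bra010038 (2319 bases) followed with 41.5, 38.7 and 42.3 RPKM in msm, against 0.356, 0.224 and 0.190 RPKM in wild type, a ratio of 159.2.

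After Bra031798 came Bra004385 (813 bases), with 75.7, 73.9 and 75.3 RPKM in msm, against 0.581, 1.03 and 1.38 RPKM in wild type. Its ratio was 75.3. The msm libraries differed little, with a coefficient of variation of 1.24%, and the wild-type libraries by more than 2-fold on 12, 21 and 28 reads. Bra005174 (828 bases) had 107.2, 94.98 and 100.01 RPKM in msm, against 1.52, 1.73 and 1.11 RPKM in wild type, a ratio of 69.2.

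**Figure D2:**
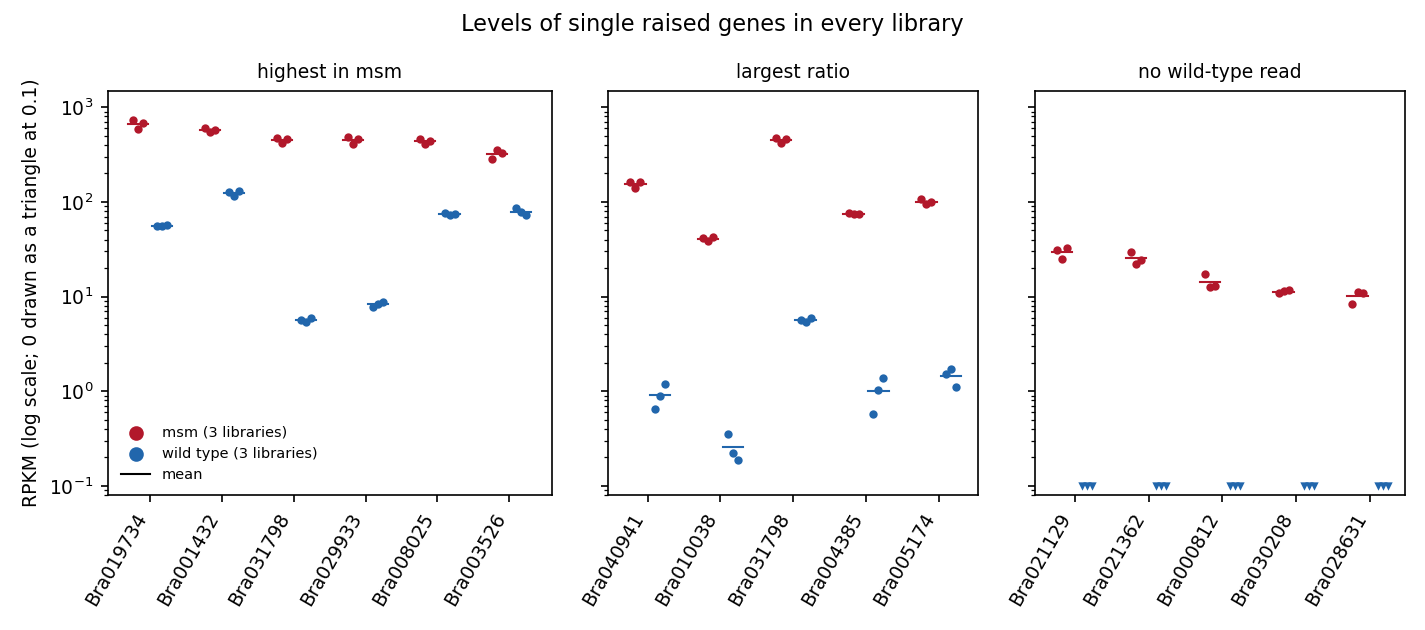
RPKM (log scale) of the 6 raised genes highest in msm, the 5 with the largest ratio among genes with at least 10 reads in each wild-type library, and the 5 highest in msm among those with no wild-type read. Points are libraries, lines are means, and Bra031798 stands in 2 panels because it meets both descriptions. The groups are apart in every gene, which the rule favours.

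No read was found in any wild-type library for 8 raised genes. Bra021129 (195 bases) had 155, 126 and 160 reads in the msm libraries, or 29.6 ± 4.32 RPKM (SD, n = 3). A count of 0 in wild type allows up to 3 counts in a library, which for this length is 0.612 RPKM on average over the wild-type libraries, so the gene was at least 48.4-fold higher in msm on the RPKM scale, as are the other bounds here. Bra021362 (219 bases) had 164, 127 and 134 msm reads, or 25.4 ± 3.73 RPKM, and was at least 46.6-fold higher. Bra000812 (216 bases) had 96, 72 and 69 msm reads, or 14.3 ± 2.73 RPKM, and was at least 25.96-fold higher. These 3 genes are short, and a short gene gives few reads for a given RPKM.

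The longer genes Bra030208 and Bra028631, also without a wild-type read, had msm levels of 11.3 ± 0.445 and 10.2 ± 1.54 RPKM (SD, n = 3). At 915 and 939 bases a count of 0 allows less, 0.130 and 0.127 RPKM, so they were at least 86.4-fold and 80.2-fold higher in msm. The other genes without a wild-type read, named after their values were seen, were Bra035108, Bra026696 and Bra022017, and they were at least 85.01-fold, 12.8-fold and 37.7-fold higher. Of the 8 genes, 4 were under 250 bases, a length that 11 of all 232 raised genes had. The bounds cover counting error only.

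Next to these stood 3 genes with 1 to 3 wild-type reads in all. Bra018067 (1080 bases) had 1316, 1145 and 1151 reads in the msm libraries, against 0, 2 and 0 reads in the wild-type libraries. Its ratio of 1775 was the largest among raised genes with a wild-type read, with an exact 95% counting interval of 492 to 14700. Bra012777 (582 bases) had 170, 125 and 156 msm reads, against 0, 0 and 1 in wild type, a ratio of 442 with an interval of 79.3 to 17590. With so few wild-type reads the fold has a wide interval, above all upward. Among genes with a wild-type read, Bra018067 and Bra012777 gained most in coverage, with 99.9% and 98.1% in msm, against 4.54% and 7.16% in wild type. Bra037219 (1509 bases) was singled out after its values were seen. It had 1988, 1611 and 1820 msm reads, against 4, 1 and 2 in wild type. Its ratio was 766, and no counting interval was computed for it.

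The wild-type level divided the set. In wild type 65 genes had a mean under 1 RPKM, 110 had 1 to 5 RPKM and 57 had 5 RPKM or more. Of the 57, 55 were at 5 RPKM or more in each wild-type library. The median ratio, with unread genes at their bound, was 32.4 in the first class, 6.001 in the second and 5.38 in the third. The median msm level ran the other way, at 10.4, 13.2 and 63.3 RPKM. A low wild-type level allows a high ratio and a floor of 5 RPKM demands one, so the rule itself favours this order.

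In reads, the set was small. The 232 genes took 1.04% ± 0.0323 of the reads in msm and 0.146% ± 0.00231 in wild type (SD, n = 3 each). The 57 genes at 5 RPKM or more in wild type held 69.6% of the msm reads of the set, and the 65 genes under 1 RPKM held 9.60%. The 10 genes highest in msm took 39.2% ± 0.175 of the set's reads in msm and 41.3% ± 0.861 in wild type. Bra003526, which lies at the ratio threshold, alone took 0.0869% of the msm reads and 0.0214% of the wild-type reads.

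Within msm the libraries were not ordered evenly. Library 2 held the lowest of the 3 msm values in 136 genes (58.6%), library 1 in 50 and library 3 in 46. Library 1 held the highest in 127 genes. The same order was weaker among the other genes at 5 RPKM or more in msm, of which 42.3% were lowest in library 2. It was stronger at high levels: among genes at 50 RPKM or more in msm, 68.9% of the 45 raised genes and 58.9% of the 4097 others were lowest there. The shift was small, since the median raised gene stood in library 2 at 0.954 of its msm mean, against 0.989 for the other genes. With TMM factors the values were 0.959 and 0.995, so the shift changed little in the raised genes and became smaller in the others. In wild type, leaving out 11 genes with ties, library 1 was lowest in 84 of 221 raised genes, library 2 in 61 and library 4 in 76. What the msm libraries differ in was not tested.

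**Figure D3:**
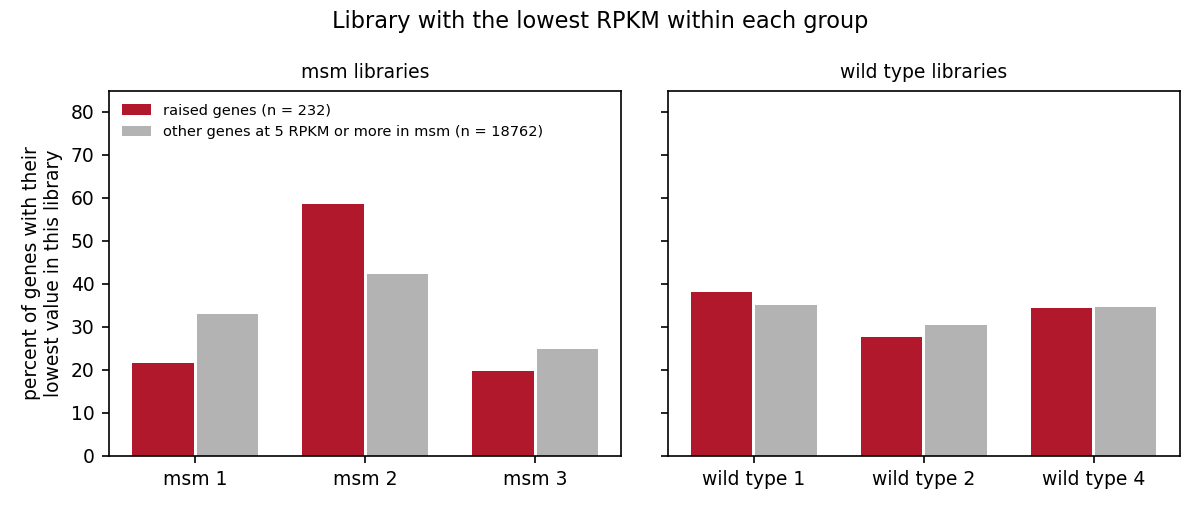
Percent of genes with their lowest RPKM in each library of the msm group (left) and of the wild-type group (right), for raised genes and for the other genes at 5 RPKM or more in each msm library. The tallest bar is msm library 2 among raised genes, at 58.6%, against 42.3% among the others. The raised genes number 232 in the msm panel and 221, without ties, in the wild-type panel.

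The spread between libraries of a group was compared with that of other genes. The median coefficient of variation in msm was 7.97% in the raised genes and 6.76% in the other genes at 5 RPKM or more. Counting error alone, the inverse square root of the mean reads, has a median of 4.78% and 3.86% in these genes. Among genes at 50 RPKM or more in msm, the median was 6.12% in the 45 raised genes and 5.88% in the 4097 others, so the sets differed little at high levels. In wild type the median was 15.8% in the raised genes, where counting error alone has a median of 13.6%, and 5.58% in the others. The widest msm spread was 31.6% in Bra030838 (207 bases), with 53, 28 and 43 reads in msm, against 13, 3 and 4 in wild type. Bra030494 (456 bases) followed at 29.7%, with 176, 139 and 94 reads in msm, against 7, 6 and 3 in wild type. Both are under 600 bases, and whether their read counts account for the spread was not tested.

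The raised genes were shorter than other genes. Their median coding length was 942 bases, from 183 to 3678, against 1134 bases in the other genes at 5 RPKM or more in each msm library. Over 2000 bases were 18 raised genes (7.76%) and 16.9% of the others, and under 600 bases were 51 raised genes (22.0%) and 17.7% of the others. Coding length enters RPKM and so touches the rule, and its part in the choice was not tested.

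The deposited tables give each gene a coverage in percent, taken here as the part of the coding length under reads. The headers do not define it, and 14 values over all genes and libraries pass 100, which that reading does not allow, so it is used only to compare libraries. Its median over the raised genes was 99.3% in msm and 93.5% in wild type, and 211 genes were covered to at least 95% in msm. Coverage grows with the number of reads and so is not independent of the choice. In the 65 genes under 1 RPKM in wild type the medians were 98.8% in msm and 56.3% in wild type. In the 57 genes at 5 RPKM or more in wild type they were 99.8% and 98.9%. Coverage was lower in msm in 2 of the 232 raised genes, against 6836 of the 18762 other genes at 5 RPKM or more in msm. The choice of genes with more reads in msm favours so low a count. Bra019238 (1470 bases) was covered to 91.7% ± 0.237 in msm and 94.7% ± 4.55 in wild type (SD, n = 3 each), a difference smaller than the wild-type spread. Bra012531 (1611 bases) was covered to 99.1% ± 0.537 and 99.2% ± 0.465, also within the spread.

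In 14 raised genes (6.03%), the coverage in msm was under 90%, against 8.95% of the other genes. The lowest were these, named after their values were seen. Bra002178 (1614 bases) was covered to 20.8% in msm by a mean of 325.7 reads and to 20.1% in wild type by 62.7 reads. Bra000348 (2313 bases) was covered to 61.7% in msm by 352.0 reads and to 58.2% in wild type by 38.3 reads. In 7 of the 14, these included, the groups differed by at most 10 percentage points, while the number of reads differed several-fold. Bra011630 (843 bases) differed most, with 71.5% in msm and 7.08% in wild type, where it had 3 reads in all.

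**Figure D4:**
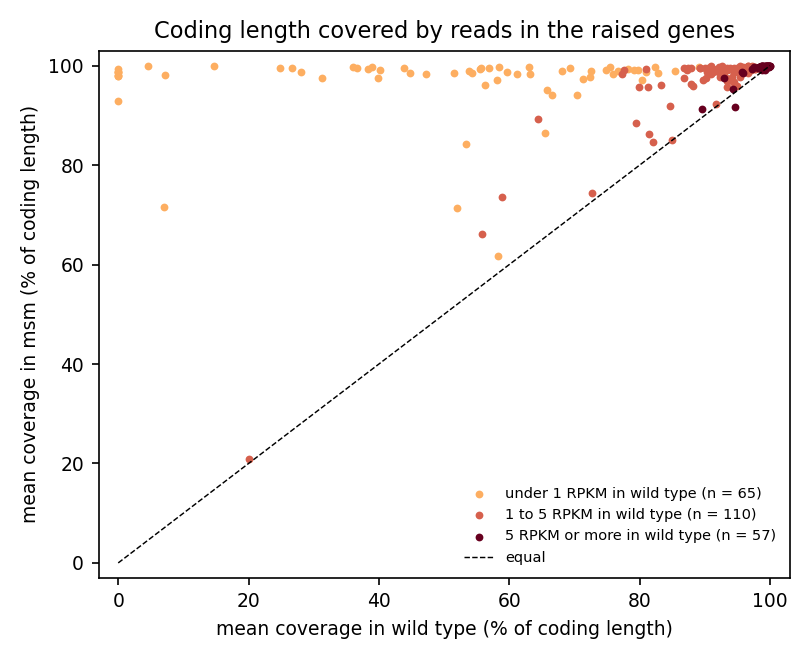
Mean coverage of the coding length in msm (vertical) against wild type (horizontal) for each of the 232 raised genes, coloured by mean wild-type RPKM. Points lie on or above the dashed line of equality except in 2 genes, and the genes under 1 RPKM in wild type spread from 0% upward on the horizontal axis.

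The numbers of 3 pairs followed each other directly, so that 6 of the 232 genes were in such runs, and no run was longer than 2. Whether neighbouring numbers mark neighbouring genes could not be checked without a genome. Bra008406 and Bra008407, of similar length (1347 and 1287 bases), had nearly the same wild-type mean of 2.50 and 2.51 RPKM but 16.8 ± 0.132 and 86.1 ± 3.83 RPKM in msm (SD, n = 3), so their ratios of 6.70 and 34.3 differed. Bra001874 and Bra001875 (507 and 618 bases) were alike, with 6.68 ± 1.38 and 7.56 ± 0.0807 RPKM in msm, against 0.653 ± 0.317 and 0.556 ± 0.350 RPKM in wild type. Bra026514 and Bra026515 (2007 and 3609 bases) had 11.7 ± 0.380 and 8.28 ± 0.749 RPKM in msm, against 1.27 ± 0.119 and 1.69 ± 0.202 RPKM in wild type. Only uniquely assigned reads were counted, so reads of near-identical copies may be missing from such genes, and how unique reads were defined is not given.

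Genes next to raised genes by number were described in the same way. Of 212 direct neighbours at 5 RPKM or more in each msm library, 6 (2.83%) were raised genes themselves, against 1.22% of all genes at that level. These 6 are the 3 pairs above, so the share rests on those pairs alone. The other 206 neighbours had a median log2 ratio of 0.34, against 0.25 over all genes at that level outside the set. Of these 206, 12 (5.83%) were at least 2-fold higher in msm, against 3.82% of the genes outside the set. Over neighbours up to 10 numbers away, the share of raised genes was 1.20% and that of 2-fold higher genes 4.25%. The closest agreement in ratio at such a distance, noticed after the values were seen, was between Bra033738 and Bra033743. They had 9.43 ± 0.312 and 10.9 ± 0.391 RPKM in msm (SD, n = 3), at ratios of 44.2 and 44.3 to wild-type means of 0.213 and 0.246 RPKM. The wild-type reads were few, at 3, 6 and 6 in Bra033738 and 8, 13 and 9 in Bra033743. Over library pairs the ratios ran from 35.3 to 76.6 and from 32.7 to 57.8, far wider than their difference.

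With the groups exchanged, the same rule gave 1208 genes at least 4-fold lower in msm out of 19015 at 5 RPKM or more in each wild-type library, against 232 of 18994. Raised genes were thus the smaller of the groups that this rule defines in the mutant bud.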

How the data were processed

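RNA of developing buds was extracted with Trizol and made into Illumina libraries, per the labels. Each library has its own table from the authors, giving per gene, per the file headers, a count of unique reads, a length, the coverage and the RPKM. The deposited counts summed to the header totals, and the deposited RPKM could be recomputed from them (largest relative error 6.4e-15). Lengths are all multiples of 3 and are therefore taken here as coding lengths, which the headers do not state. The deposited coverage, in percent, is not defined in the headers and passed 100 in 14 values. DESeq is named in the submitters' processing notes. Aligner, counter, strand, genome build and annotation: not given in the sources used here.

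The genes, lists and tests were chosen with earlier results of these data known. Counts of all genes were fitted with edgeR 4.0.16 in R 4.3.3 (TMM, its default filter, robust quasi-likelihood, Benjamini-Hochberg adjustment), which was tested on simulated data. Alternatives were DESeq2 1.42.0, limma 3.58.1 on log2(RPKM + 0.1, 1 or 5), other scalings and thresholds, a replicate block, and each library left out. Counting intervals and floors (95%, exact, SciPy 1.17.1; 3 counts for a count of 0) cover counting error only. Genes are named by fixed ranks: highest msm or wild-type level, largest ratio, unread in wild type, nearest the thresholds, and widest msm spread. The ranks also cover the largest and smallest gain in coverage, and consecutive identifiers. Some further genes were named after their values were seen, as said where they appear.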

Additional observations from a re-analysis of the deposited data

How the results depend on the processing

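The number of raised genes, 232, stayed within 1.5 times under 14 of 17 alternatives. It was 428 with an msm floor of 1 RPKM, 370 with a ratio of at least 3 and 105 with a ratio of at least 8, and with 1 library left out 233 to 241. The median log2 ratio of 2.81 became 2.26 with a ratio of at least 3, 4.22 with at least 8, 3.23 where the lowest msm library had to be 4 times the highest wild-type library, 2.95 with TMM or with DESeq2 size factors, and 2.60 with 1 RPKM added to both means. With 1 library left out it was 2.77 to 2.86.

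The share of reads in msm, 1.04%, and in wild type, 0.146%, became 1.09% and 0.153% with a floor of 1 RPKM, 1.08% and 0.152% with 2 RPKM, 0.983% and 0.139% with 10 RPKM, 1.71% and 0.341% with a ratio of at least 3, 0.415% and 0.0206% with at least 8, and 0.632% and 0.0859% without the 10 members highest in msm. With 1 library left out the ranges were 0.9496% to 1.045% in msm and 0.124% to 0.148% in wild type, the lowest without wild-type library 4, where Bra003526 left the set, as it also did without msm library 2. These thresholds act by construction.

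With only the 152 genes that have 20 reads in each library, median coverage was 99.6% in msm and 96.7% in wild type. With gaps of up to 5 between identifiers, 16 genes stood in runs. The share of genes chosen without a library of each group that were again 4-fold higher in the libraries left out was 85.7% to 91.9%. The left-out libraries may come from the same plants, so this share is a description only. The count of raised genes called higher was 232 in 16 of 17 alternative fits and 207 with limma on log2(RPKM + 5). Over all genes tested, the count called higher ran from 418 of 27131 with that limma fit to 7802 of 29104 with no fold threshold. The rule used the same contrast, so these counts add nothing to the choice. The fit with the replicate block, which is among these, used only libraries 1 and 2 of each group and called 232 of 232. For the shared numbers 1 and 2, the correlations of the libraries' deviations from their group means were -0.047 and 0.037. Those of differently numbered libraries ran from -0.075 to 0.093. No pairing was seen, but with 3 libraries per group these values cannot exclude it.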
